A study of Mus musculus with 11 samples.

Results

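The question addressed here was which genes lie to the same side of the vehicle with SPI-24 and with SPI-77, a pair of small-molecule inhibitors of the interaction between the elongation factor Spt5 and RNA polymerase II (Pol II). All 11 libraries of the study were used, 7 from treated animals (4 SPI-24 and 3 SPI-77) and 4 from animals given DMSO. The treated level of a gene was the average of the SPI-24 mean and the SPI-77 mean, so that both compounds counted equally. Of 16768 genes tested, 10705 had the same sign with both compounds, 4961 of them higher (29.6% of all genes tested) and 5744 lower (34.3%). The other 6063 genes (36.2%) had opposite signs and are not described as a common response. Both changes are taken against the same 4 DMSO libraries. That alone makes like signs more frequent than opposite ones, so the share of like signs is not read as a response. The counts of list members below share this limit.

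Spt5 forms a complex with Spt4 that binds elongating Pol II. It takes part in holding the polymerase shortly after initiation and, once phosphorylated, in productive elongation. Inducible genes such as immediate early genes and targets of NF-kB are known for control at this step, and Spt4 with Spt5 has been linked to transcription through long CAG repeats like that of the mutant huntingtin gene. The striatum, which is lost early in Huntington's disease, is built mainly of GABAergic medium spiny neurons, with fewer cholinergic and GABAergic interneurons.

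All animals, the vehicle group included, were BACHD mice on the FVB/N strain, which carry a full-length human mutant HTT gene with an expanded polyglutamine stretch beside their own Htt gene. The transgene is a bacterial artificial chromosome with human regulatory sequence. Huntingtin-transgenic animals were therefore compared only with each other. DMSO, SPI-24 or SPI-77 was given under the skin on 4 days, and small punches of striatum were taken 6 h after the last injection. The labels give neither dose, age nor sex, and the study's methods give different daily amounts for the compounds, so their values are set side by side and not compared.

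The libraries held 10.2 M to 33.8 M recovered reads, with a mean of 17.2 M. In 9 of them 19342 to 20313 genes were detected, but SPI-24 4 had 16263 and SPI-77 3 had 17932, with 1464 and 550 of the tested genes at 0. Xist, an RNA of females, was at 3333 or more in replicates 1 and 3 of DMSO and 1, 2 and 4 of SPI-24. It was at most 7.70 elsewhere, and so in the whole SPI-77 group. Its part in the results was not tested. A library's medium spiny score, the mean log2 level of 39 marker genes, was 9.75 to 11.4 with DMSO. SPI-24 1 had 10.1 and SPI-24 4 had 11.1, and the scores of SPI-24 2, SPI-24 3 and the 3 SPI-77 libraries were 8.33 to 8.62. Markers that define striatal tissue were thus present in every library, and at a lower level in 5 of the 7 treated ones.

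No gene passed the test of the pooled comparison. With a Benjamini-Hochberg adjusted p below 0.05 in limma and at least a 2-fold change of the same sign with both compounds as limits, 0 genes were called higher (0% of those tested) and 0 lower (0%). The lowest adjusted p was 0.151. At an unadjusted limma p below 0.05 there were 3569 genes, against 838 expected if no gene differed. Genes that vary together can take the count far from that number. The 3569 genes comprised 1751 higher (10.4%) and 1818 lower (10.8%). Of these, 1688 (10.1%) and 1710 (10.2%) had the same sign with both compounds. With 1 library left out, the count at that limit ranged from 1741 (without DMSO 2) to 5089 (without DMSO 1). With the medium spiny score in the model it was 1703. A difference of at least 1 log2 unit with both compounds was found for 110 genes higher (0.656%) and 476 lower (2.84%).

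The number of calls depended on 1 control library and on the method. Without DMSO 1, limma called 76 genes higher (0.457%) and 436 lower (2.62%), and edgeR called 55 and 487. Without SPI-24 1, 1 gene was called lower, and leaving out any other single library gave 0 calls. On all 11 libraries edgeR called 0 genes, with 3595 at an unadjusted p below 0.05 and a lowest adjusted p of 0.131. DESeq2 called 61 genes higher (0.422%) and 223 lower (1.54%) on the same reads. Of these, 39 and 188 were also called by limma without DMSO 1. Weighting each library by its estimated quality in limma gave 266 genes higher (1.59%) and 707 lower (4.22%), with the lowest weight on SPI-24 4 (0.197) and the next on DMSO 1 (0.407). The gene changes below are therefore given as values that did not pass the test on all libraries.

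**Figure D1:**
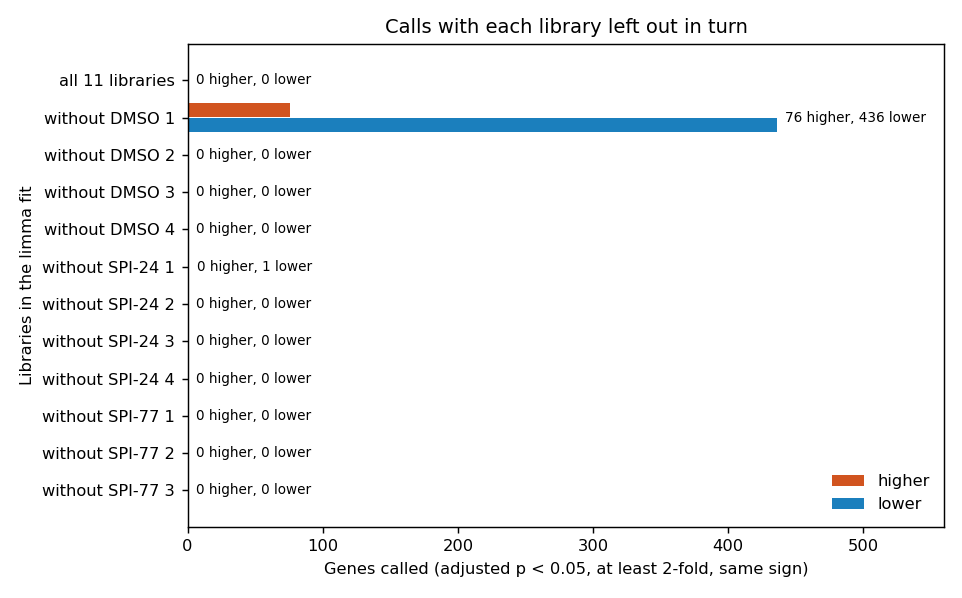
Number of genes called in the pooled comparison (x axis, adjusted p below 0.05, at least 2-fold, same sign with both compounds) with all 11 libraries and with each library left out in turn (y axis). Calls above 1 gene appeared only without DMSO 1, with 76 genes higher and 436 lower.

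**Figure D2:**
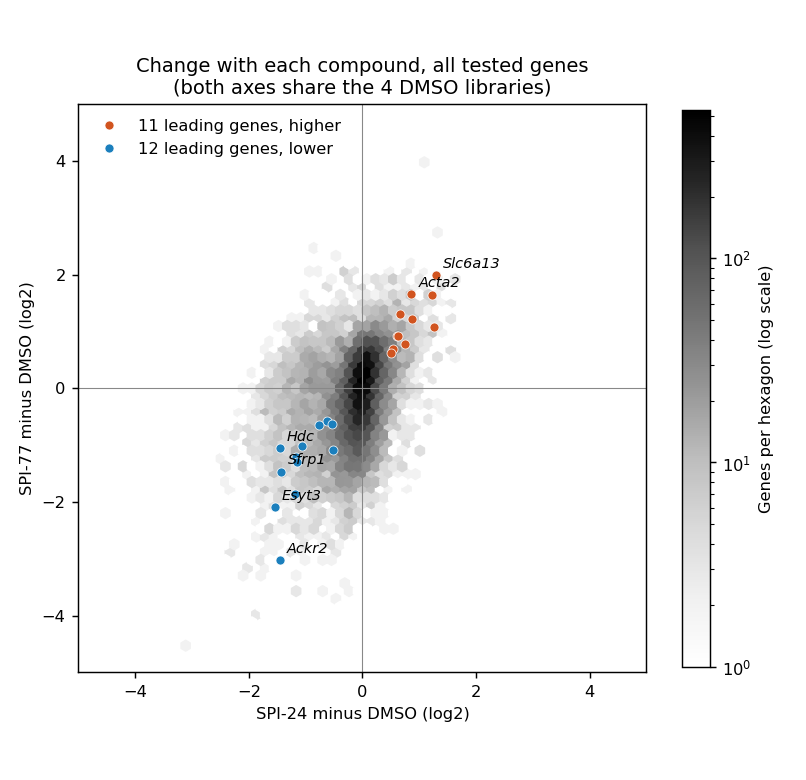
Log2 change against DMSO with SPI-24 (x axis) and SPI-77 (y axis) for all tested genes, shaded by the number of genes per hexagon on a log scale, with the leading genes in colour. Both axes share the 4 DMSO libraries. Of 16768 genes, 4961 lie to the upper right and 5744 to the lower left.

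In 68 genes all 7 treated libraries lay above all 4 DMSO libraries (0.406% of genes tested), and in 62 genes they all lay below (0.37%). A change of at least 0.5 log2 units with the compound nearer to 0 was also seen in 30 of the former (0.179%) and 45 of the latter (0.268%). From these the 12 genes with the lowest unadjusted p in each direction, with a mean of at least 30 in 1 group and an established symbol, were taken, and all but 1 of them are named. Because lack of overlap was a condition for choosing them, it is not a result about them, and their p-values are not independent of that choice. In limma on all libraries the adjusted p of those named lay between 0.151 and 0.156. With SPI-24 alone the adjusted p in limma was 0.975 for each of them. With SPI-77 alone it was below 0.05 for 9 of the 12 higher genes and 4 of the 12 lower ones.

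For a few leading genes with the largest change common to both compounds, the RefSeq promoter (GRCm38.p6, 250 bases before to 50 after the start) is shown, because Spt5 acts on polymerase soon after it leaves this region. Capitals mark the GC box, GGGCGG or its reverse complement CCGCCC, a motif of many promoters without a TATA box. Slc6a13 lies at chr6:121300038-121300337 on the plus strand. Esyt3 lies at chr9:99358481-99358780 on the minus strand, and Ackr2 at chr9:121898105-121898404 on the plus strand.
Slc6a13: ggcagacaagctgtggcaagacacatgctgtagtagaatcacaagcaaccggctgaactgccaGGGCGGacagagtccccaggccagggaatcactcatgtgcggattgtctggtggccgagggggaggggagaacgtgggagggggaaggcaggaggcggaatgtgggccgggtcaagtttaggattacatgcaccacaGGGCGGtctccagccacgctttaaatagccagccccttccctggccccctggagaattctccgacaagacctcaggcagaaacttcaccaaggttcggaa
Esyt3: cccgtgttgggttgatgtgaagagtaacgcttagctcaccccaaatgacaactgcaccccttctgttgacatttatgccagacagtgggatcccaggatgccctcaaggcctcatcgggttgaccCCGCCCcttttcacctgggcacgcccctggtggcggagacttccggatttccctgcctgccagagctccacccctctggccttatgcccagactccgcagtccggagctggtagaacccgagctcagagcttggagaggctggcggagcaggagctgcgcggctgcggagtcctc
Ackr2: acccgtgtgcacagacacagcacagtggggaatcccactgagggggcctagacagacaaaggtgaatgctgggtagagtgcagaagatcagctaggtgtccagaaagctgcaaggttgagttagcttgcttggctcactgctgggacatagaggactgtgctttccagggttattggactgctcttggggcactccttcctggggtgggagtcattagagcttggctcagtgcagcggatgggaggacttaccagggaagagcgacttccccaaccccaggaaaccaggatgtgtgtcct
Slc6a13 had GC boxes from -187 to -182 and from -50 to -45 relative to the start, Esyt3 had one from -125 to -120, and these letters were not in the Ackr2 window. Slc6a13 has 3 promoters in the table, of which the first is shown. Of the 24 leading genes, 16 had a promoter there. A GC box was found on either strand in 9 of these (56.2%) and in 35.9% of all 27025 promoters. TATAAA was found in 1 (6.25%) against 14.2% of all, the cAMP response element TGACGTCA in 0 (0%) against 1.88%, and the CArG box, the motif bound by serum response factor, in 0 (0%) against 1.57%. The 27025 promoters include those of genes that were not tested, while the leading genes had a mean of at least 30 in 1 group. The shares therefore rest on unlike sets. A match describes letters in the window and is no evidence of binding.

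Genes of vessel walls and meninges stood at the head of those higher with both compounds. Acta2 (ENSMUSG00000035783, chromosome 19, 34241090 to 34255590, GRCm38), the actin of smooth muscle, had normalized counts of 361, 206, 344 and 164 with DMSO. It had 434.5, 429, 434 and 564 with SPI-24 and 891, 819 and 725 with SPI-77. The SPI-77 libraries were the highest, and the pooled difference was 1.26 ± 0.207 log2 units (SE, limma unadjusted p = 3.97e-05, adjusted p = 0.151). Tagln, which encodes the actin-binding protein transgelin of smooth muscle, had 28.7, 18.5, 44.1 and 18.2 with DMSO. Its counts were 55.0, 45.7, 45.2 and 121 with SPI-24 and 83.9, 96.8 and 69.6 with SPI-77, a pooled difference of 1.43 ± 0.346 (adjusted p = 0.151 in limma). SPI-24 4 was the highest of all libraries for this gene, and SPI-24 3 was close to DMSO 3.

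Slc6a13 (ENSMUSG00000030108), a GABA and taurine transporter found in the leptomeninges, had 165, 75.1, 89.3 and 40.2 normalized counts with DMSO. The SPI-24 libraries lay close together at 202, 209, 187 and 208, and the SPI-77 libraries had 433, 273 and 298. Its pooled difference was 1.64 ± 0.299 (limma unadjusted p = 0.000108, adjusted p = 0.151), the largest of the 12. Col15a1, a collagen of basement membranes, had 165, 88.1, 186 and 123 with DMSO, 226, 348, 639 and 224 with SPI-24, and 336, 361 and 193 with SPI-77. Here SPI-24 3 stood out at the top and SPI-77 3 was just above DMSO 3. The extracellular glycoprotein gene Adamtsl2 and the collagen-binding integrin gene Itga10 differed by 0.77 ± 0.198 and 0.99 ± 0.315.

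The other genes of this set had varied roles. Slc29a1, which encodes the equilibrative transporter that clears adenosine, had 858, 689.9, 933 and 564 with DMSO. It had 970.3, 1101, 1550 and 1004 with SPI-24 and 1389, 1596 and 1266 with SPI-77 (difference 0.76 ± 0.164). The immediate early gene Ier2 had 122, 87.2, 131 and 82.8 with DMSO, 189, 137, 185 and 139.7 with SPI-24, and 199.8, 188 and 205 with SPI-77. Its SPI-77 libraries were nearly level, and 2 of the 4 SPI-24 libraries were just above the highest DMSO library (difference 0.78 ± 0.189). Snhg11, a host gene of small nucleolar RNAs that is abundant in neurons, had 14229 to 22012 with DMSO and 24291 to 35332 in the treated libraries (difference 0.62 ± 0.146). Zfp296 and Il4ra (the interleukin 4 receptor) differed by 1.05 ± 0.314 and 0.57 ± 0.173.

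Of the 12 leading genes lower with both compounds, 3 with low counts had the largest differences. Esyt3 (ENSMUSG00000037681), an extended synaptotagmin that tethers the endoplasmic reticulum to the plasma membrane, had 35.6, 64.9, 33.1 and 60.8 normalized counts with DMSO. It had 20.5, 15.5, 9.69 and 17.5 with SPI-24 and 13.3, 11 and 7.14 with SPI-77, a difference of -1.82 ± 0.38 (limma unadjusted p = 0.000369, adjusted p = 0.151). Ackr2 (ENSMUSG00000044534), a receptor that scavenges chemokines, had 48.3, 89.0, 37.5 and 89.4 with DMSO. Its counts were 26.9, 23.3, 15.1 and 24.1 with SPI-24 and 16.0, 8.80 and 1.79 with SPI-77 (difference -2.24 ± 0.491). The lowest value is that of SPI-77 3, the shallowest library. Wdr38 had 43.7, 28.7, 29.8 and 29.9 with DMSO and 3.57 to 17.2 in the treated libraries (difference -1.53 ± 0.42).

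Sfrp1, a secreted modulator of Wnt signals, had 301, 551, 331 and 315 with DMSO. In SPI-24 1 it was 287, close to DMSO, and it was 100, 52.8 and 206 in SPI-24 2 to 4 and 157, 144 and 98.2 with SPI-77 (difference -1.45 ± 0.39). Hdc, the enzyme that makes histamine, had 192, 145, 139 and 135 with DMSO, 122, 44.0, 23.7 and 68.0 with SPI-24, and 48.0, 95.7 and 82.1 with SPI-77 (difference -1.26 ± 0.371). For both genes SPI-24 2 and SPI-24 3, which had low medium spiny scores, were far below SPI-24 1. The constant region of the IgM heavy chain, Ighm, was more even at 386 to 448 with DMSO and 182 to 333 in the treated libraries (difference -0.60 ± 0.163). Ggh, which removes glutamates from folates, had 143 to 185 with DMSO and 66.2 to 119.7 in the treated libraries (difference -0.70 ± 0.201). The remaining genes were Zfp516, Il13ra1 (an interleukin 13 receptor), Npr3 (the clearance receptor of natriuretic peptides), Iqcd and Sass6 (centriole assembly), with differences from -0.58 for Zfp516 to -1.22 for Sass6.

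**Figure D3:**
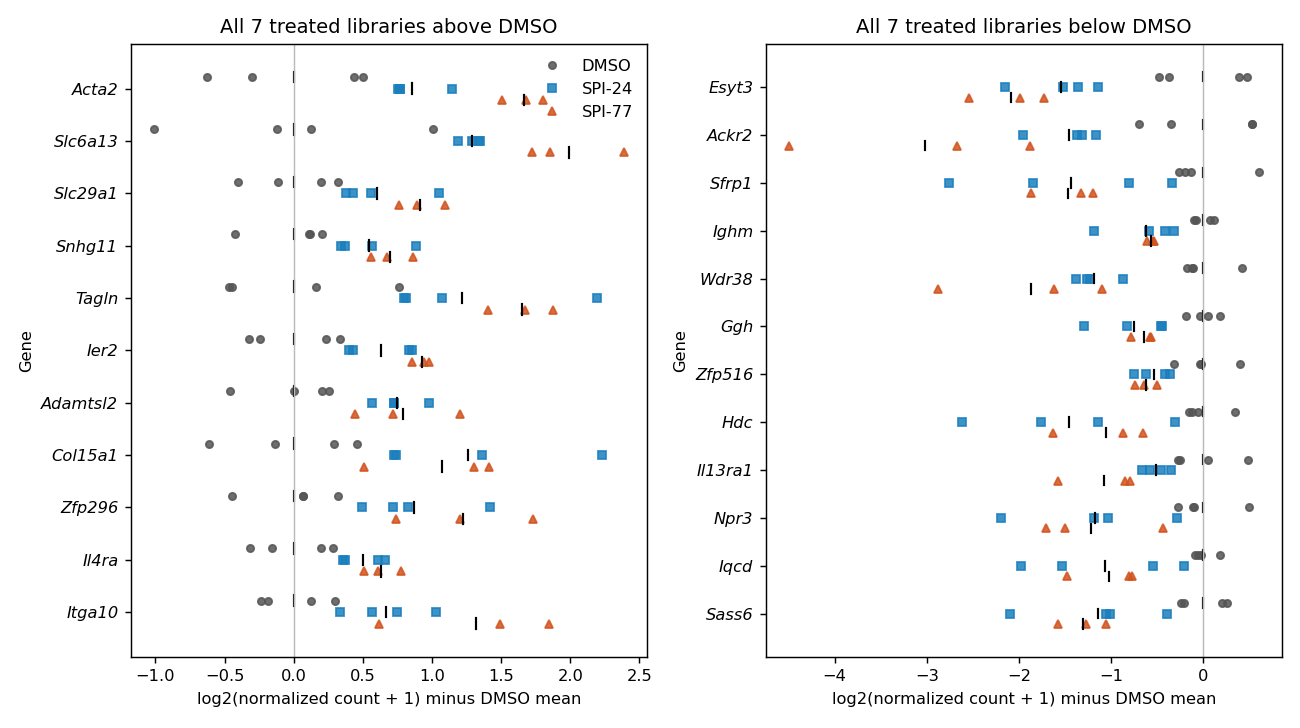
Log2(normalized count + 1) minus the DMSO mean (x axis) of 11 of the 12 leading genes higher and the 12 lower with both compounds (y axis), 1 point per library (4 DMSO, 4 SPI-24, 3 SPI-77), with black ticks at group means. The groups do not overlap because that was how the genes were chosen. Ackr2 has the widest spread, down to 1.79 normalized counts in SPI-77 3.

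Calls among these 24 genes are given as a description, since the genes were chosen in the same libraries. Without DMSO 1, limma called 4 of the 12 higher genes (Acta2, Col15a1, Slc6a13 and Tagln) and 3 of the 12 lower ones (Ackr2, Esyt3 and Sfrp1), against 0.457% and 2.62% of all genes, with an adjusted p of 0.00493 for Slc6a13 and 0.0195 for Esyt3. DESeq2 on all libraries called 6 and 4 of them, against 0.422% and 1.54% of all genes. With the medium spiny score added to the model as a covariate, the difference was 1.15 for Acta2 and 1.33 for Slc6a13, but 0.41 for Col15a1, -0.46 for Sfrp1 and -0.66 for Hdc. In 10 of the 24 genes it was smaller by more than 1.5 times. The genes Tagln, Zfp296, Slc29a1, Esyt3, Wdr38, Iqcd and Sass6 overlap another tested gene. The sources used here do not say whether the counting used strand, so their counts are uncertain.

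The vessel wall and meningeal lists as a whole lay in the same direction as their leading members Acta2, Tagln and Slc6a13. Like all lists here, they were chosen with earlier results of these data known. Their values are therefore a description and no independent support for the leading genes. Of 16 mural and smooth muscle genes, 12 were higher with both compounds and 0 were lower, with 9 higher at an unadjusted p below 0.05 against 10.4% of all genes. Their median difference was 0.66 (0.27 with SPI-24, 1.15 with SPI-77), and that of all tested genes was -0.04. Myh11, the myosin of smooth muscle, had 310.2, 152, 255 and 95 with DMSO, 258, 317, 405 and 264 with SPI-24, and 585, 638 and 502 with SPI-77. The SPI-24 libraries overlapped with DMSO and the SPI-77 libraries did not. The summed level of the list was 4215 to 6744 with DMSO, 6479 to 6721 with SPI-24 and 8520 to 10332 with SPI-77. Of 19 genes of meningeal fibroblasts, 15 were higher with both and 2 lower, with a median of 0.62 and a summed level of 9834 to 21498, 16106 to 26243 and 33244 to 36330. Of these 16 and 19 genes, limma without DMSO 1 called 5 and 7 higher (0.457% of all genes) and 0 lower (2.62%). Such calls were not limited to these lists. The same fit called 10 of 39 medium spiny and 3 of 15 GABA interneuron genes lower. It called 2 of 20 thalamic and 2 of 11 pretectal and midbrain GABA neuron genes higher. In a tissue piece, more cells of a type and more RNA per cell cannot be told apart.

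Of 13 endothelial genes, 8 were higher with both compounds and 4 lower, with a median of 0.23 (-0.10 with the medium spiny covariate) and a summed level of 5543 to 7489 with DMSO and 6041 to 8907 in the treated libraries. Hemoglobin and other blood genes, as a measure of residual blood, had 1 of 4 higher and 1 lower with both compounds and a median of 0.07.

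Genes of striatal neurons had lower group means with both compounds, but not lower levels in every treated library. The medium spiny scores of SPI-24 1 (10.1) and SPI-24 4 (11.1) lay within the DMSO range of 9.75 to 11.4. Of 39 genes of medium spiny neurons, 37 were lower with both and 0 higher, and 29 were lower at an unadjusted p below 0.05 against 10.8% of all genes. The median difference was -1.39 (-0.92 with SPI-24, -2.03 with SPI-77). Strip2, the list's lowest p, had 178, 612, 417 and 537 with DMSO, 259.8, 221, 118 and 141 with SPI-24, and 58.6, 82.5 and 67.8 with SPI-77 (difference -1.83 ± 0.325, adjusted p = 0.151 in limma). DMSO 1 overlapped with the SPI-24 libraries, and all SPI-77 libraries lay below. For Strip2 the adjusted p in limma was 0.975 with SPI-24 alone and 0.0179 with SPI-77 alone. Of 8 genes of cholinergic interneurons, 7 were lower with both compounds, with a median of -3.07. Slc5a7, the choline transporter, had 21.8, 58.4, 114 and 97.3 with DMSO, 28, 5.17, 2.15 and 25.9 with SPI-24, and 4.00, 1.10 and 3.57 with SPI-77, where the lowest values are a few reads. SPI-24 1 and SPI-24 4 were level with DMSO 1, and the other treated libraries were lower. Of 15 genes of GABA interneurons, 13 were lower with both, with a median of -0.88.

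Genes of the ventricle lining were lower with both compounds too. All 13 choroid plexus genes and all 12 ependymal genes had that sign, with medians of -1.66 and -1.30. Of these, 7 and 2 were lower at an unadjusted p below 0.05, against 10.8% of all genes. With the medium spiny covariate the choroid plexus median was -0.0639 and the ependymal median turned to 0.28. Kl, the klotho gene of the choroid plexus, had 788, 1484, 912 and 675 with DMSO, 783, 122, 61.4 and 862 with SPI-24, and 144, 299 and 246 with SPI-77. SPI-24 1 and SPI-24 4 lay within the DMSO range and all others far below. The ciliary factor gene Foxj1 had 585 in SPI-24 1 and 843 in SPI-24 4, against 480.0 to 689.9 with DMSO and 130.3 to 310.2 in the other treated libraries. The summed choroid plexus level ranged from 85216 to 208075 with DMSO, from 6554 to 149857 with SPI-24 and from 37138 to 103482 with SPI-77.

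Genes of neighbouring brain regions differed in both directions. Of 20 genes of thalamic neurons, 17 were higher with both compounds and 0 lower, with a median of 1.11 (1.19 with SPI-24, 0.90 with SPI-77). Tnnt1 had 1106, 115, 954 and 126 with DMSO, 937, 2834, 4066 and 527 with SPI-24, and 3033, 5065 and 6085 with SPI-77 (difference 2.91 ± 0.77). DMSO 1 and DMSO 3 overlapped with SPI-24 1 and SPI-24 4. The summed thalamic level was 10692 to 38093 with DMSO and 22117 to 79832 in the treated libraries, with no member at 0 in any library. Of 11 genes of pretectal and midbrain GABA neurons, 8 were higher with both and 1 lower, with a median of 1.32. Members at 0 in some library were Gata3 and Sox14 with DMSO, and Gata3, Lhx1, Sox14 and Tal1 with SPI-24. With SPI-77 0 members were at 0. Gata3 had 2.16, 7.76, 103 and 0 normalized counts with SPI-24. Of 10 hypothalamic genes, 1 was higher with both and 6 were lower, with a median of -0.73. Of 12 genes of cortical excitatory neurons, 6 were higher and 1 was lower, with a median of 0.37 that turned to -0.32 without DMSO 3. The median over 5 midbrain dopaminergic genes was 0.61, but -0.38 with the covariate and -0.45 at a mean of at least 30. Over 9 habenular genes it was -0.06, and 0.57 with the covariate. Markers of other regions and of the ventricle lining therefore differed between the treated and DMSO libraries, and beyond the medium spiny covariate above their part in the gene differences was not tested. With the covariate the thalamic median was -0.00080 and that of mural genes was 0.31.

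**Figure D4:**
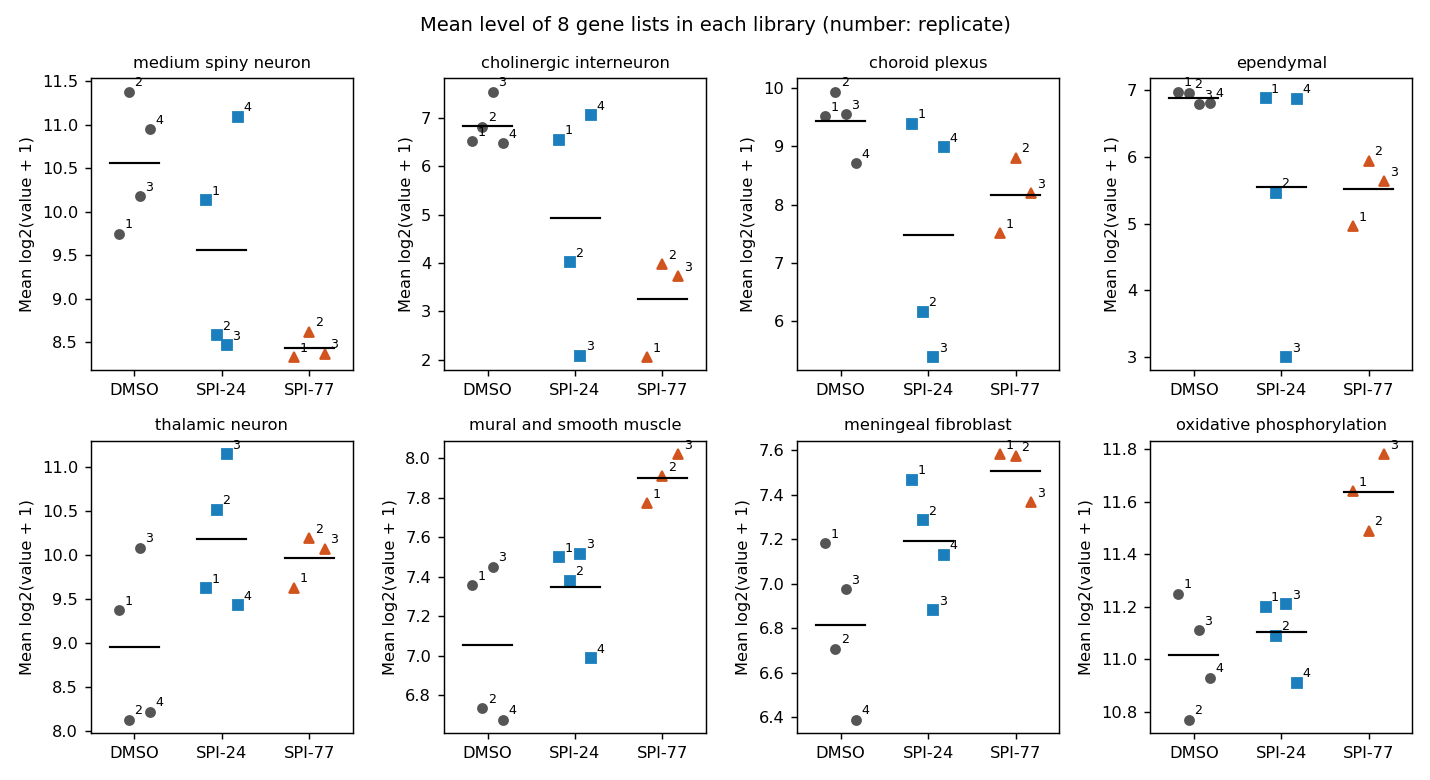
Mean log2(normalized count + 1) of the tested genes of 8 lists (y axis of each panel) in each library of the 3 groups (x axis), with lines at group means and numbers giving the replicate. SPI-24 1 and SPI-24 4 lie with DMSO in the medium spiny, cholinergic, choroid plexus and ependymal panels. In the mural and oxidative phosphorylation panels the SPI-77 libraries lie above all others.

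Genes of the machinery that the compounds target differed in both directions. Of 31 genes of Spt5 and Pol II elongation, 15 were higher with both compounds and 6 lower, with a median of 0.11. At an unadjusted p below 0.05, 7 were higher and 3 lower, against 10.4% and 10.8% of all genes. Supt5, which encodes Spt5, had 2479 to 3379 with DMSO and 2792 to 3457 in the treated libraries (difference 0.16 ± 0.11, adjusted p = 0.402 in limma). Supt4a, which encodes its partner Spt4, had 447, 336, 418 and 354 with DMSO, 504, 387, 382 and 538 with SPI-24, and 594, 545 and 591 with SPI-77 (difference 0.39 ± 0.138, adjusted p = 0.162). In 2 of the 31 members all treated libraries lay above DMSO (0.406% of all genes tested), and in 0 they all lay below (0.37%). The elongation factor gene Tcea2, which helps arrested polymerase to resume, had 744 to 1242 with DMSO, 1267, 1357, 1381 and 1271 with SPI-24, and 1616, 1713 and 1828 with SPI-77 (difference 0.65 ± 0.136). Nelfa, a subunit of the negative elongation factor, had 406 to 455 with DMSO and 491 to 591 in the treated libraries (difference 0.32 ± 0.106), and its partner Nelfb differed by 0.35 ± 0.121. Aff4, a scaffold of the super elongation complex, differed by -0.68 ± 0.221 log2 units (limma unadjusted p = 0.00922, adjusted p = 0.155), with -0.04 for SPI-24 and -1.31 for SPI-77. Mllt3, another gene of that complex, differed by -0.45 ± 0.163.

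Immediate early genes, whose induction depends on release of paused polymerase, were not lower as a group. Of 23, 12 were higher with both compounds and 4 lower, with a median of 0.34 (0.50 with SPI-24, 0.19 with SPI-77). Fos had 79.3, 43.6, 100.4 and 30.9 with DMSO, 337, 119, 129 and 767 with SPI-24, and 97.2, 197 and 80.3 with SPI-77 (difference 1.56 ± 0.515, adjusted p = 0.157 in limma). SPI-24 4 was by far the highest, and SPI-77 1 and SPI-77 3 lay within the DMSO range. Of 26 listed genes of NF-kB subunits and inflammatory targets, 16 passed the filter. Of these 16, 5 were higher with both and 2 lower, with a median of 0.03. Nfkbia, the inhibitor that NF-kB itself induces, had 364 to 554 with DMSO and 422 to 765 in the treated libraries (difference 0.39 ± 0.168).

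Of 17 genes of the glucocorticoid response and metallothioneins, 9 were higher with both compounds and 2 lower, with a median of 0.23. The metallothionein gene Mt2 had 2423, 1401, 2099 and 1427 with DMSO, 2728, 2219, 2650 and 2271 with SPI-24, and 3630, 4589 and 4350 with SPI-77 (difference 0.84 ± 0.157). SPI-24 2 and SPI-24 4 lay below DMSO 1 and all SPI-77 libraries above it. Of 74 nuclear genes of oxidative phosphorylation, 56 were higher with both and 2 lower, and 50 were higher at an unadjusted p below 0.05, against 10.4% of all genes. Their median was 0.37 (0.09 with SPI-24, 0.68 with SPI-77), and 0.15 with the medium spiny covariate. Ndufa12, a subunit of complex I, had 277 to 352 with DMSO, 544, 344, 392 and 498 with SPI-24, and 621, 521 and 685 with SPI-77 (difference 0.73 ± 0.151), so that 1 SPI-24 library overlapped with DMSO. Cytosolic ribosomal protein genes were not a common response, since 40 of 75 had opposite signs with the compounds. Their median was -0.08 with SPI-24 and 0.70 with SPI-77.

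**Figure D5:**
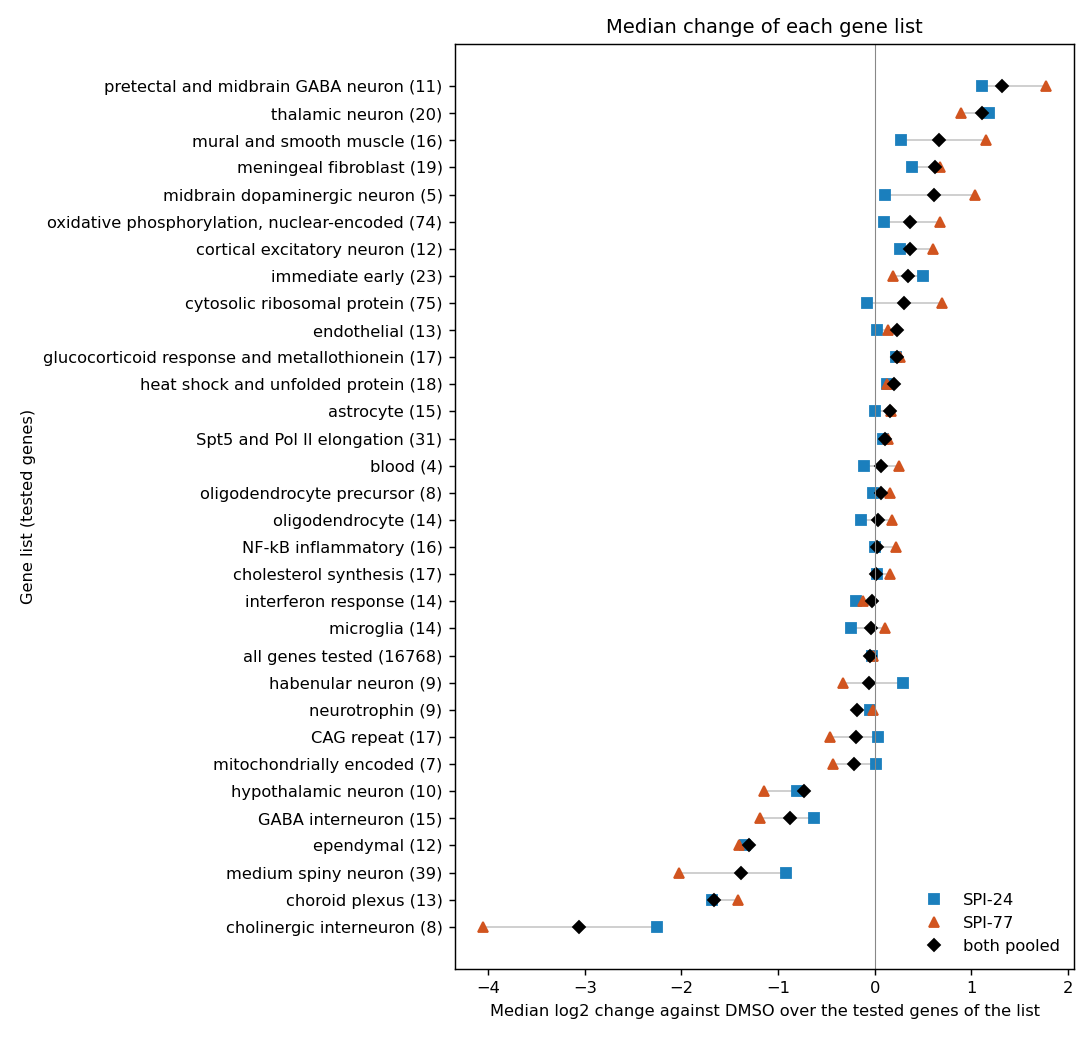
Median log2 change against DMSO (x axis) over the tested genes of each list (y axis, number tested in brackets) with SPI-24 (squares), SPI-77 (triangles) and both pooled (diamonds). Cholinergic interneuron genes are lowest with a pooled median of -3.07 and pretectal and midbrain GABA neuron genes highest at 1.32. All tested genes have a median of -0.04.

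Pooled medians were 0.16 for astrocytes, 0.04 for oligodendrocytes, 0.07 for their precursors, -0.03 for microglia, -0.03 for interferon response, 0.02 for cholesterol synthesis, -0.18 for neurotrophin, -0.21 for mitochondrially encoded and 0.21 for heat shock and unfolded protein genes. With 1 library left out the medians of oligodendrocyte, precursor, microglia, interferon, cholesterol synthesis and mitochondrially encoded genes each took both signs, as did those of the blood, habenular and NF-kB lists above. Of 17 genes with CAG repeats, 3 were higher with both compounds and 6 lower, with a median of -0.20 (0.04 with SPI-24, -0.46 with SPI-77). Bdnf, the neurotrophin that supports striatal neurons and reaches them mainly from cortex, had 49.6 to 155 with DMSO, 86.1 to 237 with SPI-24 and 75 to 125 with SPI-77. The groups overlapped widely (difference 0.34 ± 0.351, adjusted p = 0.587 in limma).

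The transgene itself did not have the same sign with both compounds. Human HTT differed by -0.02 ± 0.1003 log2 units in the pooled comparison (0.10 with SPI-24 and -0.13 with SPI-77), and mouse Htt by 0.04 ± 0.112. The ratio of human HTT to mouse Htt counts was 2.35, 2.81, 2.52 and 2.45 with DMSO. It was 2.67, 2.56, 2.38 and 2.96 with SPI-24 and 2.32, 2.31 and 2.06 with SPI-77. SPI-24 ratios lay within and above the DMSO range and SPI-77 ratios below it, so that the pooled log2 difference was -0.06, with a 95% interval from -0.29 to 0.15. In an exact two-sided permutation test over all 11550 assignments of the libraries, p was 0.542. That interval assumes the same shift with both compounds, and the difference between the compounds enters its width. A common lowering of the ratio by more than 0.29 log2 units lies outside the interval, and smaller ones could not be told from none.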

How the data were processed

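RNA from striatal punches was sequenced with a stranded poly(A) kit. According to the study's methods, the authors trimmed reads with cutadapt, aligned them to GRCm38 with STAR, dropped reads with several positions, counted genes with HTSeq and scaled counts with DESeq2. No version of these tools was found in the sources used here. The deposited signal is a normalized count, reads divided by a size factor. Dropping reads with several positions lowers genes with close copies. The deposited log2 fold changes, p-values and called lists of the authors were not used.

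Deposited values were whole multiples of 1 step per library (at least 99.99% within 0.1 step), so reads were recovered. Of 20957 identifiers, 20924 (99.8%) matched a name table. Genes with at least 10 in 3 libraries (16768) were compared on log2(normalized count + 1), a scale that shrinks differences of low genes, with limma 3.58.1 (R 4.3.3, trend, robust, 3 group means, 11 libraries). The labels name biological replicates without saying which animal each came from, so p-values measure the spread between these libraries. As alternatives, edgeR 4.0.16 called 0 genes on the recovered reads and DESeq2 1.42.0 called 61 higher and 223 lower. The limma, edgeR and DESeq2 fits of the 3 groups and the exact test were checked on simulated data. The simulated counts had the same dispersion in all genes and libraries. Fits with library quality weights, the covariate or the replicate block were not checked in this way.

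Named genes were those called, or, with fewer than 5 called in a direction, the 12 with the lowest unadjusted p among genes without overlap, a change of at least 0.5 with both compounds, a mean of at least 30 in a group and an established symbol. Up to 4 members per list, Supt5, Supt4a, Htt, HTT and Bdnf were added. A gene of the higher set is not reported here. The comparison, the members and the 31 gene lists were chosen with earlier results of these data known. Coordinates are those of GENCODE on GRCm38.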

Additional observations from a re-analysis of the deposited data

Results flagged for a closer look

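Within groups of 4 libraries, 1 library stood far from the other 3 in 6 of 122 groups examined, close to the 1 in 20 that chance gives. Acta2 was highest in SPI-24 4 among the SPI-24 libraries, with a normalized count of 564. Among the DMSO libraries, DMSO 2 was lowest for Snhg11 (14229) and highest for Sfrp1 (551) and human HTT (5546), and DMSO 1 was highest for Wdr38 (43.7). The oligodendrocyte score, a mean log2 level, was lowest in SPI-24 3 at 12.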

How the results depend on the processing

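The 0 calls in each direction held in limma with other pseudocounts, filters, TMM scaling, fold limits, treated library weights, a single treated group, the medium spiny covariate, a call for each compound alone required of both, and the replicate block, and in edgeR. Calls higher and lower were 61 and 223 with DESeq2, 266 and 707 with library quality weights in limma (66 and 285 of them shared with the calls without DMSO 1), and 0 to 76 and 0 to 436 with each library left out. With alternatives added after the data were seen, they were 55 and 487 in edgeR without DMSO 1, and 249 and 734 in limma without both DMSO 1 and SPI-24 4. The genes with all treated libraries above or below DMSO numbered 73 to 489 and 68 to 575 with 1 library left out, where fewer libraries make separation easier. They numbered 294 and 308 without both libraries of number 4, and 1311 and 1153 without DMSO 1 and SPI-24 4 (added). Those below DMSO numbered 110 without a filter and 32 at a mean of at least 30.

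With the medium spiny score as covariate, list medians were 0.0799 for medium spiny genes (by construction near 0), -0.96 for cholinergic, -0.15 for GABA interneuron, -0.00080 for thalamic, 0.57 for habenular, 0.41 for pretectal and midbrain GABA, -0.38 for midbrain dopaminergic, -0.10 for endothelial, 0.31 for mural, -0.0639 for choroid plexus, 0.28 for ependymal, 0.94 for immediate early, 0.15 for oxidative phosphorylation and 0.22 for cholesterol synthesis genes. The cause was not tested. At a mean of at least 30 the midbrain dopaminergic median was -0.45. The median of Spt5 and Pol II elongation genes was 0.0688 to 0.147 with 1 library left out and 0.17 without DMSO 1 and SPI-24 4 (added). The human HTT to mouse Htt difference was -0.09 to -0.01 with 1 library left out and -0.04 with equal library weights.

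Samples that share only a replicate number were not treated as pairs, because the labels do not describe them as pairs. The deviations of 10 such pairs correlated at -0.156 to 0.205, and 5 of the 10 exceeded 0.1. For pairs of different numbers across groups the range was -0.211 to 0.15. Whether the numbers mark pairs was not tested. With the replicate block, limma called 0 genes (3868 at an unadjusted p below 0.05, lowest adjusted p 0.0818), DESeq2 called 74 higher and 213 lower, and the HTT ratio difference was -0.04 (exact permutation p = 0.648). Low genes were limited by detection, since 1464 tested genes were at 0 in SPI-24 4 although it held 26.0 M reads.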
